A study of Mus musculus with 9 samples.

Results

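The genes described here are 34 complement genes: soluble components, fluid and membrane regulators, and receptors. They were taken by symbol from the 16231 genes of the count table. The selection rule uses no measured value, but the list was drawn up with earlier results of these data known. All 34 had a row, and all 34 were among the 12747 genes that passed the filter on low counts.

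Complement is a cascade of plasma proteins that marks and lyses targets. The classical pathway starts with C1q and its proteases C1r and C1s, the lectin pathway with mannose-binding lectins, collectins and ficolins and their MASP proteases, and the alternative pathway with C3 itself. All lead to cleavage of C3 and then of C5, after which C6, C8 and C9 take part in the membrane attack complex. Hepatocytes secrete most of the plasma components. Macrophages make C1q and properdin, and myeloid cells carry the receptors for the fragments of C3 and C5.

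Bulk RNA-seq was done on 9 mouse libraries labelled retina, in 3 groups of 3: young, aged, and aged with EGCG, a green tea polyphenol (epigallocatechin gallate). By its title the series concerns damage of the retinal pigment epithelium, CYFIP2 and AKT. No genotype, strain, sex, age, dose, route or duration is given in the sources used here, so neither the 3 groups' ages nor the treatment can be stated further. The labels do not say whether replicate libraries stem from different animals. Every p-value here therefore reflects the spread between libraries, which may be technical.

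The libraries held 34240500 to 39922044 counts each. The labelled tissue was not borne out by its defining markers. Alb, serum albumin, which hepatocytes are known to secrete, took 7.73 to 9.21% of the counts of every library, while the 9 libraries together held 15 counts of Sag, the arrestin of rods. The rod list was not at 0 throughout: Gnat1, rod transducin, had 4542 counts over all libraries (29.2 CPM on average in young) and Rom1 had 518. Of 8 rod markers 6 had a row, and of 7 markers of the retinal pigment epithelium 2 did: Best1 with 4 counts in all and Lrat, which hepatic stellate cells also express, with 3012. The liver macrophage lectin gene Clec4f had 16149 counts over all libraries and the microglial gene Tmem119 had 114. Libraries of the same group differed by more than counting noise (chi-square over degrees of freedom of 3.75 to 4.71), and each was kept as 1 sample.

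Levels between genes are compared per gene length, in the FPKM (fragments scaled to gene length and library size) that the authors deposited, as mean ± SD of 3 libraries. C3, the component on which the pathways converge, was the highest of the 34 in the young libraries, at 2107 ± 15.9 FPKM. Clu (clusterin, an inhibitor of the membrane attack complex) followed at 921 ± 17. Serping1 (C1 inhibitor) and Cfb (factor B of the alternative pathway) came next at 467 ± 9 and 464 ± 8.56 FPKM, a difference within their spread. The chains of C1q lay far lower, between 10.9 and 12.4 FPKM, and the receptor chain Itgam was lowest at 0.151 ± 0.0958. Together the 34 genes took 2.33 ± 0.00921% (SD, n = 3) of the reads counted in young, 2.51 ± 0.00405% in aged and 2.03 ± 0.0139% in EGCG-treated libraries. Their summed CPM, the scaling used in the comparisons below, was 25252 to 25611 in young and 23741 to 23969 in aged libraries. In EGCG-treated libraries it was 19479.7 to 19660.1. The direction with age therefore depends on the scaling, and both measures were lowest with EGCG. C3 alone made up 46.9 to 47.3% of the member counts in young, 43.6 to 43.9% in aged and 42 to 42.4% in EGCG-treated libraries.

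Aged libraries were compared with young ones. The genes that macrophages make and the receptors were higher in the aged libraries by 2.28-fold to 5.17-fold, while the genes that hepatocytes secrete moved by little and in both directions. Of the 34 genes, 20 were higher and 12 lower by edgeR's quasi-likelihood test (Benjamini-Hochberg adjusted p under 0.05 over all genes tested). Among all genes tested 69.5% were called, 33.4% higher and 36.1% lower, so being called is common here, and the shares among the 34 were 58.8% and 35.3%. The CPM (counts scaled to library size) of the aged and young libraries did not overlap in 33 of the 34, beside 71.4% of all genes tested. The median log2 fold change of the 34 was 0.14, beside -0.01 over all genes. All 5 macrophage-made genes and all 4 receptors were higher, with medians of 1.81 and 1.87. Of 20 hepatocyte-secreted genes 8 were higher and 11 lower, with a median of -0.13 and a range of -0.69 to 0.50. On the deposited FPKM 23 of the 34 were higher and 4 lower. There the hepatocyte-secreted genes split into 10 higher and 4 lower, and the median over all genes moved by 0.183 for log2(FPKM + 0.1). Over all genes tested 48.1% of the calls were higher, and 66.8 to 67.2% were on FPKM. Changes with age of about that size among the hepatocyte-secreted genes therefore depend on the scaling.

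The effect of treatment was read from the EGCG-treated against the untreated aged libraries, which are also 1 arm of the comparison with age, so the 2 comparisons share libraries. Complement genes were mostly lower with treatment: 25 of 34 fell and 5 rose, beside 31.5% and 31.8% of all genes tested (63.3% called). The CPM of the groups did not overlap in 31 of the 34, beside 66.9% of all genes. The median of the 34 was -0.34, beside 0.01 over all genes. All 9 macrophage-made genes and receptors fell, by 1.55-fold to 6.5-fold. Of the 20 hepatocyte-secreted genes 14 fell and 5 rose (median -0.17, range -0.64 to 0.49), and the genes that rose were C6, C8g, Masp2, Mbl1 and Mbl2. These 14 calls became 12 with upper-quartile factors and 15 on FPKM.

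EGCG-treated aged libraries were also compared with young ones. This contrast holds age and treatment together. Here 10 of the 34 were higher and 17 lower, beside 30.8% higher and 32.1% lower over all genes (62.9% called), with a median of -0.10 beside 0.02. The groups did not overlap in 28 of the 34, beside 65.2% of all genes. All 5 macrophage-made genes were still higher than in the young libraries, as was 1 receptor, Itgb2. Of the 20 hepatocyte-secreted genes 17 were lower and 2 higher (median -0.31). Upper-quartile factors gave 15 higher and 12 lower of 34 and FPKM gave 14 and 12. Under both, 6 hepatocyte-secreted genes were higher and 12 lower. Over all genes the share of calls that were higher went from 49% to 65.6% with upper-quartile factors and to 66.9 to 67.2% on FPKM.

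**Figure D1:**
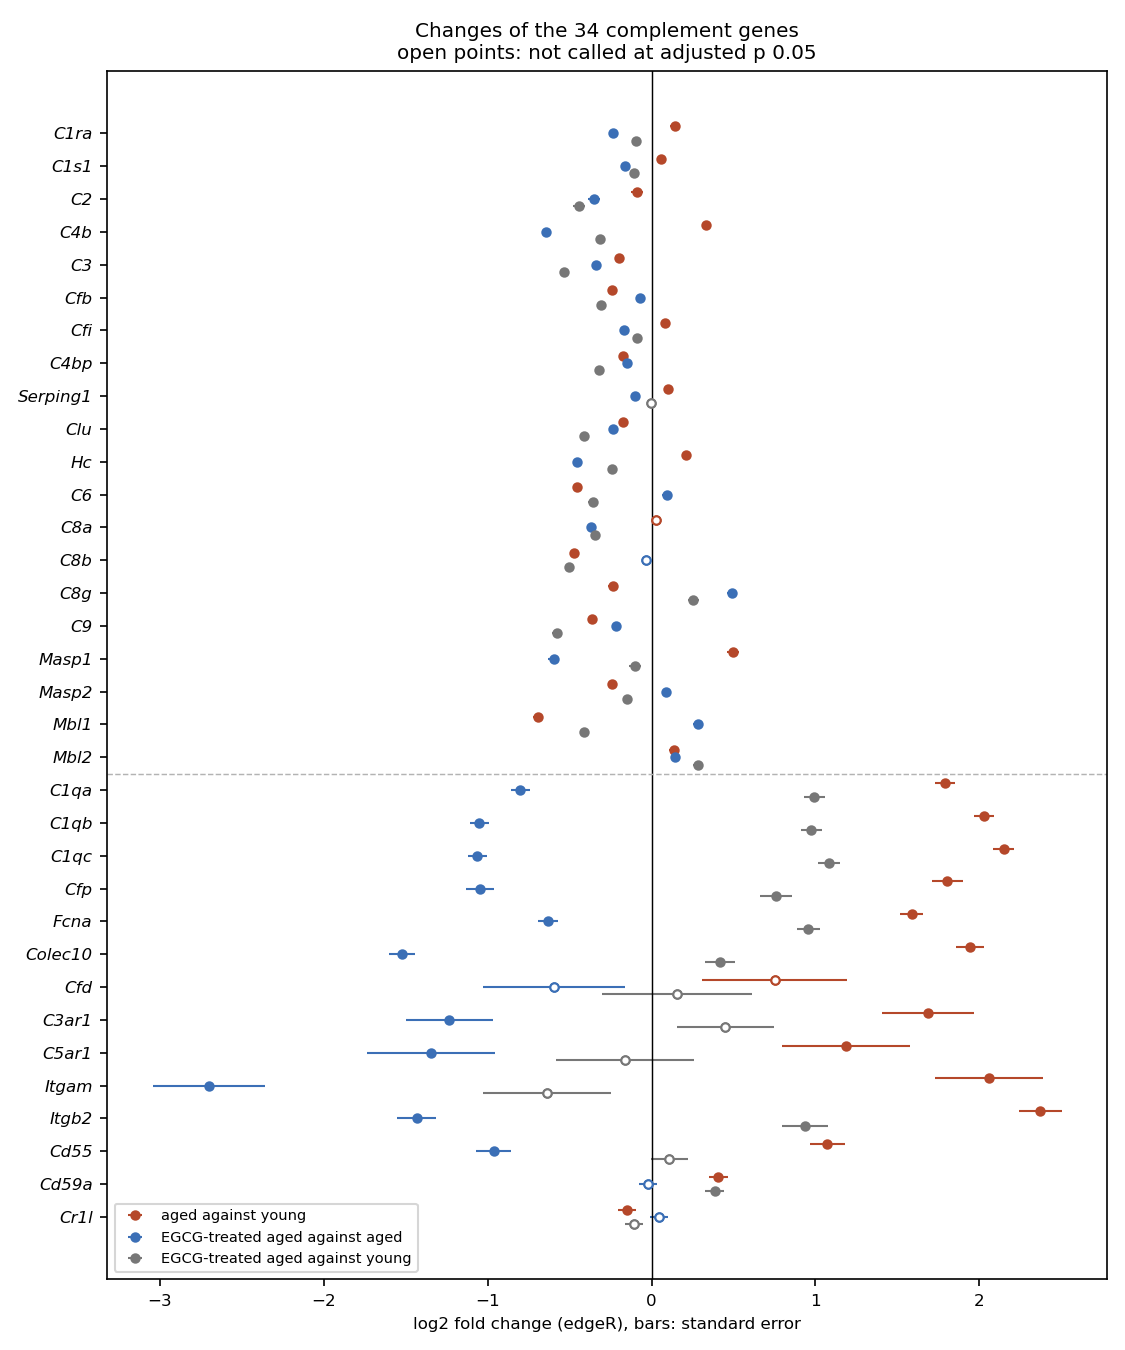
Log2 fold changes of the 34 complement genes (x axis) in the 3 comparisons, from edgeR, with bars of 1 standard error and open points for genes not called at adjusted p 0.05. Hepatocyte-secreted genes (above the dashed line) stayed between -0.69 and 0.50, and the C1q chains lay between 1.79 and 2.15 for aged against young.

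The 3 chains of C1q, the recognition molecule of the classical pathway, moved in the same direction, with C1qa changing least with age and with EGCG. They are neighbouring genes on chromosome 4 of GRCm38 (C1qb at chr4:136880129-136886187, C1qc at chr4:136889804-136893065 and C1qa at chr4:136895917-136898803, all on the minus strand, GENCODE M21). C1qa stood at 14.7, 14.6 and 14.5 CPM in young, 49.6, 53 and 49 in aged and 28.8, 28.7 and 29.6 in EGCG-treated libraries. For C1qb the values were 13.8, 13.9 and 14.4 CPM (young), 55.3, 57.4 and 59.2 (aged) and 26.2, 27.9 and 28.9 (EGCG-treated). C1qc gave 12.5, 14.3 and 13.1 CPM (young), 60.6, 58.5 and 58 (aged) and 27.4, 27.5 and 29.7 (EGCG-treated). In all 3 genes every aged library lay above every EGCG-treated one, and every EGCG-treated library above every young one. Against young, the aged libraries were higher in C1qa (log2 1.79, SE 0.062, adjusted p = 2.47e-27), in C1qb (log2 2.03, SE 0.0622, adjusted p = 2.8e-29) and in C1qc (log2 2.15, SE 0.0633, adjusted p = 6.17e-30). With EGCG, C1qa fell by 0.80 (SE 0.057, adjusted p = 3.98e-16), C1qb by 1.05 (SE 0.057, adjusted p = 4.43e-20) and C1qc by 1.06 (SE 0.0575, adjusted p = 3.79e-20). The treated libraries remained 1.99-fold (C1qa), 1.97-fold (C1qb) and 2.12-fold (C1qc) above the young ones, with adjusted p of 1.09e-17, 2.86e-17 and 1.53e-18.

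Cfp encodes properdin, which stabilises the alternative pathway convertase, and Fcna encodes ficolin A, a lectin that starts the lectin pathway. Cfp stood at 8.94, 6.89 and 7.66 CPM in young, 26.6, 27.8 and 27.7 in aged and 12.1, 14.4 and 13.2 in EGCG-treated libraries. Fcna stood at 14.4, 15.4 and 12.5 CPM in young, 43.3, 42.4 and 41.4 in aged and 27.6, 26.8 and 27.6 in EGCG-treated libraries. The 3 groups of each gene did not overlap, and their order was that of C1q. With age Cfp rose by 1.81 (SE 0.0923, adjusted p = 3.71e-21) and Fcna by 1.59 (SE 0.0682, adjusted p = 7.41e-24). With EGCG Cfp fell by 1.05 (SE 0.0859, adjusted p = 3.51e-14) and Fcna by 0.63 (SE 0.0629, adjusted p = 1.01e-11). Both stayed above young under treatment (Cfp log2 0.76, SE 0.0967, adjusted p = 4.81e-09; Fcna log2 0.95, SE 0.0702, adjusted p = 7.58e-16). An antisense gene overlaps exons of Fcna, and it is not stated whether counting used strand.

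Group means rose in the order young, EGCG-treated, aged in 11 of the 34 genes, 32.4%, beside 19.8% of all genes tested. These 11 included all 5 macrophage-made genes.

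Macrophage markers moved in the same direction. All 10 genes of a list of Kupffer cells (the macrophages of the liver) and other macrophages were higher in the aged than in the young libraries (median 2.55) and all 10 were lower with EGCG (median -1.59). Against young, 9 of them were higher in the treated libraries (median 1.14). Their summed level was 114 to 115 CPM in young, 661 to 682 in aged and 224 to 231 in EGCG-treated libraries. None of the 10 was near 0 in any group: the lowest group mean was 1.44 CPM, of Timd4 in the young libraries. In bulk samples fewer cells of a type and less RNA per cell cannot be told apart, and the part of cell number in the C1q values was not tested. Divided by the summed marker level of the same library, the 3 C1q chains together stood at 0.36 to 0.373 in young, 0.243 to 0.255 in aged and 0.363 to 0.381 in EGCG-treated libraries. The quotient in the aged libraries thus lay below both other groups, which overlapped. With age the markers rose by 1.69 (Clec4f) to 4.18 (Marco) on the log2 scale, and the C1q chains by 1.79 to 2.15. The quotient therefore depends on the markers summed. It was not tested, and 3 libraries against 3 could not give a two-sided permutation p under 0.1.

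Promoters are shown to let the macrophage-made and the hepatocyte-secreted genes be read side by side: the 4 macrophage-made genes that matched, then the 2 hepatocyte-secreted genes with the largest change among those matched. Those of the receptors and membrane regulators were searched but are not shown. Each run covers 250 bases before to 50 after the transcription start (RefSeq, GRCm38.p6), 5′ to 3′ on the gene's own strand. Of the 34 members 24 matched this table by symbol. Capitals mark matches, on either strand, to a STAT motif (TTCNNNGAA), a C/EBP motif (TTGCNNAA), the NF-kB consensus or the core GAGGAA of PU.1, the myeloid ETS factor encoded by Spi1. The windows are C1qb (chr4:136886151-136886450, minus strand), C1qc (chr4:136892865-136893164, minus strand), Cfp (chrX:20931506-20931805, minus strand), Fcna (chr2:25627925-25628224, minus strand), Mbl1 (chr14:41151206-41151505, plus strand) and C9 (chr15:6445096-6445395, plus strand).
C1qb: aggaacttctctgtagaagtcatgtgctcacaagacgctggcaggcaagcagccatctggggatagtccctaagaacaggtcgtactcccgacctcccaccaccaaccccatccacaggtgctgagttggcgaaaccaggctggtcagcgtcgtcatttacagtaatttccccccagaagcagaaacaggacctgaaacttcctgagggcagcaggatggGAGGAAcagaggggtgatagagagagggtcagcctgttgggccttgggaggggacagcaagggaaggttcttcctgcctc
C1qc: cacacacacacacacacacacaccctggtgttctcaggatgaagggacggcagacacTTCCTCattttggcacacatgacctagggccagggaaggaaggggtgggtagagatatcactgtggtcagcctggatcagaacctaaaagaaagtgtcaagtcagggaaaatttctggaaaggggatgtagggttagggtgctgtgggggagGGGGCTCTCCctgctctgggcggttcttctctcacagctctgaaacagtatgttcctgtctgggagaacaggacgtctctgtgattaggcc
Cfp: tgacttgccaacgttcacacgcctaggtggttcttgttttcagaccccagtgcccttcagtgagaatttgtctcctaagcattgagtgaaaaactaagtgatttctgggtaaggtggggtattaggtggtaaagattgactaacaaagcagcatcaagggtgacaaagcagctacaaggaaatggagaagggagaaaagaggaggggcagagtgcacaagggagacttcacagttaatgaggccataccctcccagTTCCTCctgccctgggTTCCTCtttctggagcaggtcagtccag
Fcna: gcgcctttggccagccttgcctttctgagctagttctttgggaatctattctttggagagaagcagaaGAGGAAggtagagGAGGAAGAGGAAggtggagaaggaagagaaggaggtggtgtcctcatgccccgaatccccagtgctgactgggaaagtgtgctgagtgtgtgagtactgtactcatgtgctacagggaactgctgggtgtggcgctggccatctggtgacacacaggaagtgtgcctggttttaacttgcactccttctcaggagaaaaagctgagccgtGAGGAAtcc
Mbl1: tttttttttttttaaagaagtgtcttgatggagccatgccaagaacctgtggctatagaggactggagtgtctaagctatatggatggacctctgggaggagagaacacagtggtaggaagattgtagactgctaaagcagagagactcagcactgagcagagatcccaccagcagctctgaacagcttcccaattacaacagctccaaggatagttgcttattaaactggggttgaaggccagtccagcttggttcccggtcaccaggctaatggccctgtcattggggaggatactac
C9: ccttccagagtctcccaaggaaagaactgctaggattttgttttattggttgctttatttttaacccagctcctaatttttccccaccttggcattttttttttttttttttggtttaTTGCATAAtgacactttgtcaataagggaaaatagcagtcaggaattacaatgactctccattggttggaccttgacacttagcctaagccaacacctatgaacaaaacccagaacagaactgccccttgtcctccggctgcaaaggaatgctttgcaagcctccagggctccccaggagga

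The PU.1 core was in all 4 of these macrophage-made promoters, in 1 of 3 receptor promoters (Itgam), in 1 of 3 promoters of membrane regulators (Cd59a), in 1 of 13 hepatocyte-secreted ones (C1ra) and in 28.3% of all 32851 promoters of the table. C1qb held 1 match, C1qc 1, Cfp 2 and Fcna 4, of which 2 in Fcna adjoin. The NF-kB consensus matched once, in C1qc, at position -41 from the start (4.51% of all promoters hold it). Among the 13 hepatocyte-secreted genes with a promoter the C/EBP motif was in 4, C1ra, C1s1, C3 and C9 (10.8% of all promoters), and the STAT motif in 3, C1ra, C8a and Masp2 (8.3% of all promoters). No match of these 4 motifs was found in the Mbl1 window. A match is a run of letters and not evidence of binding.

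**Figure D2:**
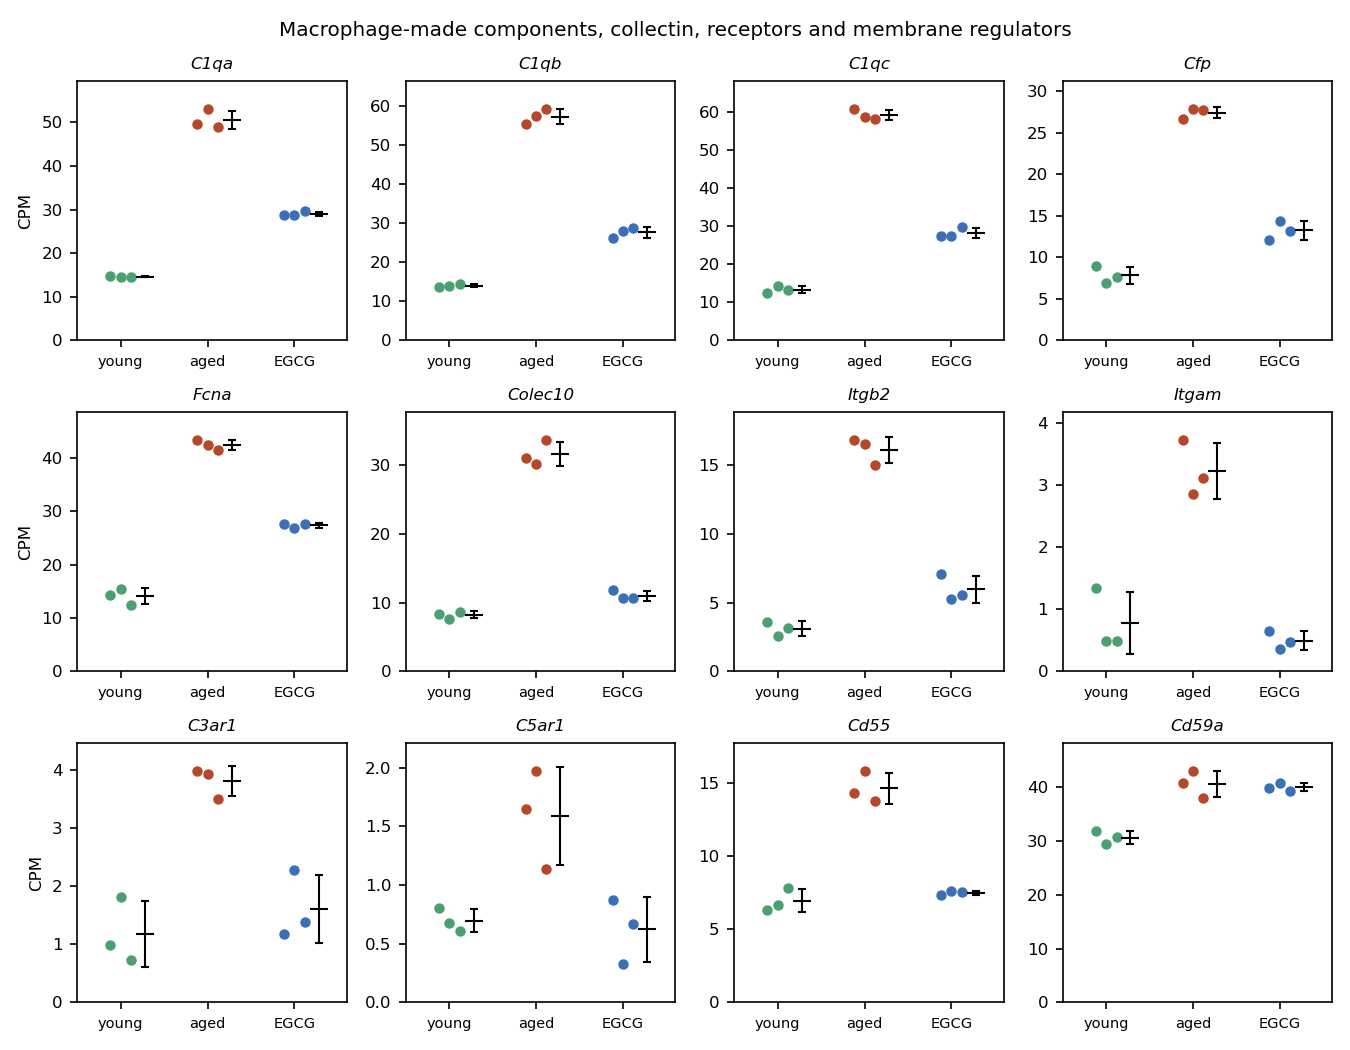
CPM (y axis, linear from 0) of 12 complement genes in each library (points) with the group mean and SD (bars) for the young, aged and EGCG-treated aged groups (EGCG). The C1q chains, Cfp, Fcna, Colec10 and Itgb2 were highest in the aged libraries and, in every case shown, all aged libraries lay above all young ones.

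The receptors were far less abundant. Itgb2, the beta 2 integrin chain shared by complement receptors CR3 and CR4, stood at 3.59, 2.56 and 3.18 CPM in young, 16.8, 16.5 and 15 in aged and 7.06, 5.24 and 5.56 in EGCG-treated libraries. It rose with age (log2 2.37, SE 0.131, adjusted p = 5.96e-20), fell with EGCG (log2 -1.43, SE 0.119, adjusted p = 4.86e-14) and stayed above young under treatment (log2 0.94, SE 0.141, adjusted p = 1.94e-07). Itgam, the alpha chain of CR3, stood at 1.35, 0.494 and 0.484 CPM in young, 3.72, 2.85 and 3.11 in aged and 0.654, 0.353 and 0.473 in EGCG-treated libraries. The aged libraries were 4.17-fold above the young ones (log2 2.06, SE 0.33, adjusted p = 5.82e-07), a log2 change that was 2.709 without young replicate 1, and the treated libraries were 6.5-fold below the aged ones (SE 0.344, adjusted p = 5.77e-09), the largest fall among the 34. The treated and young libraries overlapped (log2 -0.64, adjusted p = 0.151), and without young replicate 1 this value was 0.009. A gene model overlaps exons of Itgam, so its counts are uncertain.

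The receptor of the anaphylatoxin C3a, C3ar1, stood at 0.993, 1.82 and 0.727 CPM in young, 3.98, 3.94 and 3.51 in aged and 1.17, 2.28 and 1.39 in EGCG-treated libraries. It rose with age (log2 1.69, SE 0.279, adjusted p = 1.09e-06) and fell with EGCG (log2 -1.24, SE 0.265, adjusted p = 9.24e-05). Treated and young libraries overlapped (log2 0.45, adjusted p = 0.184), though without young replicate 2 the difference was 0.908 (adjusted p = 0.0149). C5ar1, the receptor of C5a, had 12 to 78 counts per library. Its levels were 0.801, 0.68 and 0.606 CPM (young), 1.65, 1.97 and 1.14 (aged) and 0.872, 0.326 and 0.667 (EGCG-treated). It rose with age (log2 1.19, SE 0.392, adjusted p = 0.00714), a call lost without aged replicate 2 (adjusted p = 0.0546), and fell with EGCG (log2 -1.35, SE 0.391, adjusted p = 0.00282). Markers of monocytes and neutrophils, which also carry these receptors, summed to 11.9 to 14.7 CPM in young, 17.4 to 19.1 in aged and 4.18 to 5.1 in EGCG-treated libraries. Of these 7 markers 3 were higher with age and 5 lower with EGCG, and their part in the receptor values was not tested.

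The membrane regulators did not move alike. Cd55, decay-accelerating factor, which dissociates C3 convertases, stood at 6.34, 6.67 and 7.84 CPM in young, 14.3, 15.8 and 13.8 in aged and 7.36, 7.6 and 7.53 in EGCG-treated libraries. It rose with age (log2 1.07, SE 0.107, adjusted p = 8.41e-12) and fell with EGCG (log2 -0.96, SE 0.105, adjusted p = 1.17e-10), and the treated libraries overlapped the young ones (log2 0.11, adjusted p = 0.422), a difference called, among the alternatives run, only with upper-quartile factors (0.272). Cd59a, which blocks assembly of the membrane attack complex, stood at 31.8, 29.4 and 30.8 CPM in young, 40.9, 43 and 38.1 in aged and 39.9, 40.9 and 39.4 in EGCG-treated libraries. It rose with age by 0.41 (adjusted p = 4.36e-08) and did not pass the test between treated and untreated aged libraries (log2 -0.02, SE 0.0556, adjusted p = 0.766). It remained 0.39 above young in the treated libraries (adjusted p = 1.71e-07). Cr1l, the rodent regulator Crry, stood at 40.2, 39.1 and 39.8 CPM in young, 34.7, 36.6 and 35.8 in aged and 38.4, 35 and 37.2 in EGCG-treated libraries. Its fall of 0.15 with age (adjusted p = 0.0137) was lost without aged replicate 1 (adjusted p = 0.0533) and turned to 0.046 on log2(FPKM + 0.1). An antisense gene overlaps exons of Cd55, and Cd59a has a related gene, Cd59b.

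Of the genes placed with neither source, Colec10 encodes collectin L1, a lectin that binds MASP proteases. It stood at 8.39, 7.66 and 8.6 CPM in young, 31, 30.2 and 33.6 in aged and 11.8, 10.6 and 10.6 in EGCG-treated libraries. It rose with age (log2 1.94, SE 0.0857, adjusted p = 1.99e-23), fell with EGCG (log2 -1.52, SE 0.0817, adjusted p = 3.1e-20) and stayed above young (log2 0.42, SE 0.092, adjusted p = 0.000119). Stellate cell and fibroblast markers, a list of 7 genes, moved the same way, all 7 higher with age and all 7 lower with EGCG. This was not particular to that list: all 6 sinusoidal endothelial and all 10 macrophage markers were also higher with age and lower with EGCG. The summed level of the stellate cell and fibroblast markers was 150 to 169 CPM in young, 502 to 509 in aged and 237 to 250 in EGCG-treated libraries. The part of these cell types in the Colec10 values was not tested. Cfd, factor D of the alternative pathway, which adipocytes are known to secrete, had 6 to 49 counts per library and was called in no comparison (log2 0.75, -0.60 and 0.15 in the order above). The change with age was 1.164 (adjusted p = 0.0432) without young replicate 1, and on log2(FPKM + 0.1) it was 1.063 (adjusted p = 0.0335). The adipocyte gene Adipoq had 3 counts over all libraries.

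The hepatocyte-secreted genes were measured more closely, with standard errors of 0.0148 to 0.0368 on the log2 scale. Markers of hepatocytes summed to 146463 to 148857 CPM in young, 133028 to 134313 in aged and 141107 to 146065 in EGCG-treated libraries. Of these 10 markers 1 was higher and 9 lower with age, and 7 were higher and 2 lower with EGCG against aged. So most hepatocyte markers rose with EGCG while most of the 20 complement genes fell, and the part of hepatocyte number in either was not tested. With age, the falls of Alb (log2 -0.05), Ttr (-0.10) and Apoa1 (-0.13) were smaller than the 0.183 by which the all-gene median moved on FPKM. These falls, and that of the summed level, which is mostly Alb, may therefore depend on the scaling. The other falls with age ran from -0.21 (Cps1) to -1.15 (Tat).

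Among genes that start the lectin pathway, the 2 mannose-binding lectins went opposite ways with age. Mbl1 stood at 322, 307 and 312 CPM in young, 187, 194 and 200.3 in aged and 239, 232 and 238 in EGCG-treated libraries. It fell by 0.69 with age (SE 0.0295, adjusted p = 4.58e-24), the largest fall with age among the 34, rose by 0.28 with EGCG and stayed 0.41 below young. Mbl2 stood at 215, 225 and 236 CPM in young, 245, 249 and 249 in aged and 274, 269 and 279.8 in EGCG-treated libraries, with 3 groups that did not overlap. It rose by 0.14 with age and by a further 0.15 with EGCG. The ratio of Mbl2 to Mbl1 in FPKM, which no scaling of libraries can move, was 3.29 to 3.72 in young, 6.12 to 6.44 in aged and 5.64 to 5.79 in EGCG-treated libraries. Masp1, the protease gene that also yields MASP-3, stood at 94.5, 96.4 and 99.9 CPM in young, 139, 138 and 134 in aged and 91.5, 90.9 and 89.1 in EGCG-treated libraries. It rose by 0.50 with age and fell by 0.60 with EGCG, to 0.10 below young on the log2 scale, a call that was lost without EGCG replicate 3 (adjusted p = 0.055) or young replicate 3 (adjusted p = 0.0975) and turned to 0.080 on log2(FPKM + 0.1). Masp2, which cleaves C4 and C2, stood at 289.5, 284 and 285 CPM in young, 236, 246 and 245 in aged and 251, 263 and 261 in EGCG-treated libraries. It moved the other way, down by 0.24 with age (on log2(FPKM + 0.1) the call was lost, adjusted p = 0.202) and up by 0.09 with EGCG. Its fall of 0.15 against young turned to 0.030 on FPKM. The ratio of Masp2 to Masp1 was 6.07 to 6.53 in young, 3.62 to 3.89 in aged and 5.84 to 6.23 in EGCG-treated libraries, so the aged libraries stood apart from both other groups, which overlapped. Exons of Masp2 overlap the antisense gene Tardbp.

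Of the classical pathway proteases, C1ra stood at 319, 328 and 328 CPM in young, 369, 355 and 351 in aged and 306, 303 and 305 in EGCG-treated libraries, and C1s1 at 573, 559.6 and 557 CPM (young), 579, 598 and 584 (aged) and 533, 506 and 533 (EGCG-treated). Both rose little with age (0.14 and 0.06), the second a call lost without aged replicate 2 (0.045, adjusted p = 0.169), without young replicate 2 (0.114) or 3 (0.133), or without a filter (0.0664). Both fell with EGCG (-0.23 and -0.16), and no alternative run ended those 2 calls. Against young, both were lower in the treated libraries (-0.09 and -0.11), which turned to 0.086 and 0.074 on log2(FPKM + 0.1). C4b, component C4, stood at 1668, 1674 and 1616 CPM in young, 2102, 2063 and 2066 in aged and 1339, 1326 and 1322 in EGCG-treated libraries. It rose by 0.33 with age and fell by 0.64 with EGCG (SE 0.0199, adjusted p = 7.34e-29), to a level 0.31 below young, and its 3 groups did not overlap. C2, the other component of the classical convertase, stood at 122, 124 and 118 CPM in young, 111, 114 and 116 in aged and 86.7, 90.5 and 90.6 in EGCG-treated libraries. It fell with EGCG by 0.35 and lay 0.44 below young (SE 0.0368, adjusted p = 4.61e-14). Its change with age, -0.09, was lost without aged replicate 1 (adjusted p = 0.115), young replicate 1 (0.0526) or young replicate 2 (0.101), with RLE factors (0.0996), DESeq2 (0.1) or a fit of 2 groups (0.121), and turned to 0.110 on log2(FPKM + 0.1). C1ra, C1s1 and C4b have near-identical copies, and exons of C1s1 and C2 overlap other genes, so their counts are uncertain.

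C3 (chr17:57203970-57228136, minus strand) stood at 12023, 12054 and 11846 CPM in young, 10511, 10418 and 10351 in aged and 8300.2, 8188 and 8263 in EGCG-treated libraries. It lay 0.34 lower on the log2 scale with EGCG than in untreated aged libraries (adjusted p = 2.33e-23) and 0.54 lower than in young ones (SE 0.0148, adjusted p = 4.21e-31). As a share of all counts C3 took 1.1 ± 0.00829% (SD, n = 3) in young, 1.1 ± 0.00489% in aged and 0.856 ± 0.0103% in EGCG-treated libraries. The fall of 0.20 with age in the scaled values was thus not seen in the share of counts, and on FPKM that call was lost (adjusted p = 0.989). Cfb, which pairs with C3b in the alternative pathway convertase, stood at 1379, 1419 and 1405 CPM in young, 1195, 1191 and 1173 in aged and 1121, 1127 and 1138 in EGCG-treated libraries. It fell by 0.24 with age, a call lost on FPKM (-0.041, adjusted p = 0.0678), and by 0.07 with EGCG, a call lost with upper-quartile factors (adjusted p = 0.626). The gene lies next to C2 on chromosome 17, and 1 gene model overlaps exons of both.

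The fluid regulators moved by 0.41 or less. Cfi, factor I, which cleaves C3b and C4b, stood at 721, 701 and 703 CPM in young, 752, 752 and 740.3 in aged and 663, 668 and 665 in EGCG-treated libraries. C4bp, the cofactor that binds C4b, stood at 630.1, 640.1 and 624 CPM in young, 558, 554 and 568 in aged and 508, 499.9 and 506 in EGCG-treated libraries. Serping1, which inactivates C1r, C1s and the MASPs, stood at 955, 933 and 911 CPM in young, 999, 1006 and 999 in aged and 918, 932 and 947 in EGCG-treated libraries, and Clu at 2313, 2215 and 2245 CPM (young), 2039, 1986 and 1979.8 (aged) and 1652, 1719 and 1721 (EGCG-treated). With EGCG all 4 fell against aged libraries, by 0.17 (Cfi), 0.15 (C4bp), 0.10 (Serping1) and 0.24 (Clu). The call of Serping1 was lost with upper-quartile factors (adjusted p = 0.086). With age Cfi and Serping1 rose (0.08 and 0.10) and C4bp and Clu fell (-0.17 and -0.17), of which the last 2 turned to 0.026 each on FPKM. Against young, the treated libraries were lower in Clu by 0.41 (SE 0.0207, adjusted p = 1.91e-21), in C4bp by 0.32 and in Cfi by 0.09, which turned to 0.089 on FPKM. Serping1 did not pass the test there (log2 -0.000708, SE 0.0221, adjusted p = 0.98).

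Genes of the terminal pathway did not move as a block. Hc, the mouse gene of C5, stood at 1099, 1096 and 1121 CPM in young, 1267, 1273 and 1304 in aged and 949, 929 and 926 in EGCG-treated libraries. It rose by 0.21 with age and fell by 0.46 with EGCG, with no overlap between groups. Exons of Hc overlap an antisense gene. C6 stood at 338, 339.8 and 343 CPM in young, 248, 246 and 252 in aged and 262, 263 and 269.9 in EGCG-treated libraries. It fell by 0.45 with age and rose by 0.09 with EGCG. C9, which forms the ring of the pore, stood at 654, 621 and 622 CPM in young, 483, 495 and 496 in aged and 418, 427 and 424 in EGCG-treated libraries. It fell in both steps, by 0.36 and 0.22, and was 0.58 lower in treated than in young libraries (SE 0.0249, adjusted p = 6.33e-24), the largest fall called in that comparison.

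C8 is built from 3 chains encoded by separate genes, and these diverged. C8a stood at 919.9, 929.7 and 930.3 CPM in young, 939.8, 949 and 939.9 in aged and 742, 721 and 725 in EGCG-treated libraries. It was not called with age (log2 0.03, adjusted p = 0.304) and fell by 0.37 with EGCG. The change with age was called with upper-quartile factors (0.132) and on FPKM (0.224). It was also called with DESeq2 (0.047, adjusted p = 0.017) and in a fit of 2 groups (0.053, adjusted p = 0.0194). C8b stood at 547, 524 and 529.7 CPM in young, 382, 390.3 and 382 in aged and 367, 378 and 383 in EGCG-treated libraries. It fell by 0.47 with age, was not called with EGCG (log2 -0.03, adjusted p = 0.237; called on log2(FPKM + 0.1), -0.055, adjusted p = 0.0453) and was 0.51 below young in treated libraries (SE 0.0255, adjusted p = 1.96e-21). C8g, a lipocalin chain, stood at 268, 285 and 267 CPM in young, 244, 224 and 228 in aged and 317, 319 and 342 in EGCG-treated libraries. It fell by 0.24 with age, a call lost on FPKM (-0.036), and rose by 0.49 with EGCG, the largest rise among the 34 there. Per length, C8b stood at 0.91 to 0.96 of C8a in young, 0.657 to 0.664 in aged and 0.799 to 0.852 in EGCG-treated libraries, with no overlap between the 3 groups. C8g stood at 0.728 to 0.777, 0.599 to 0.659 and 1.08 to 1.2 of C8a in the same order. In the C1q chains, C1qc to C1qa was 0.821 to 0.944 in young, 1.06 to 1.18 in aged and 0.916 to 0.968 in EGCG-treated libraries.

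**Figure D3:**
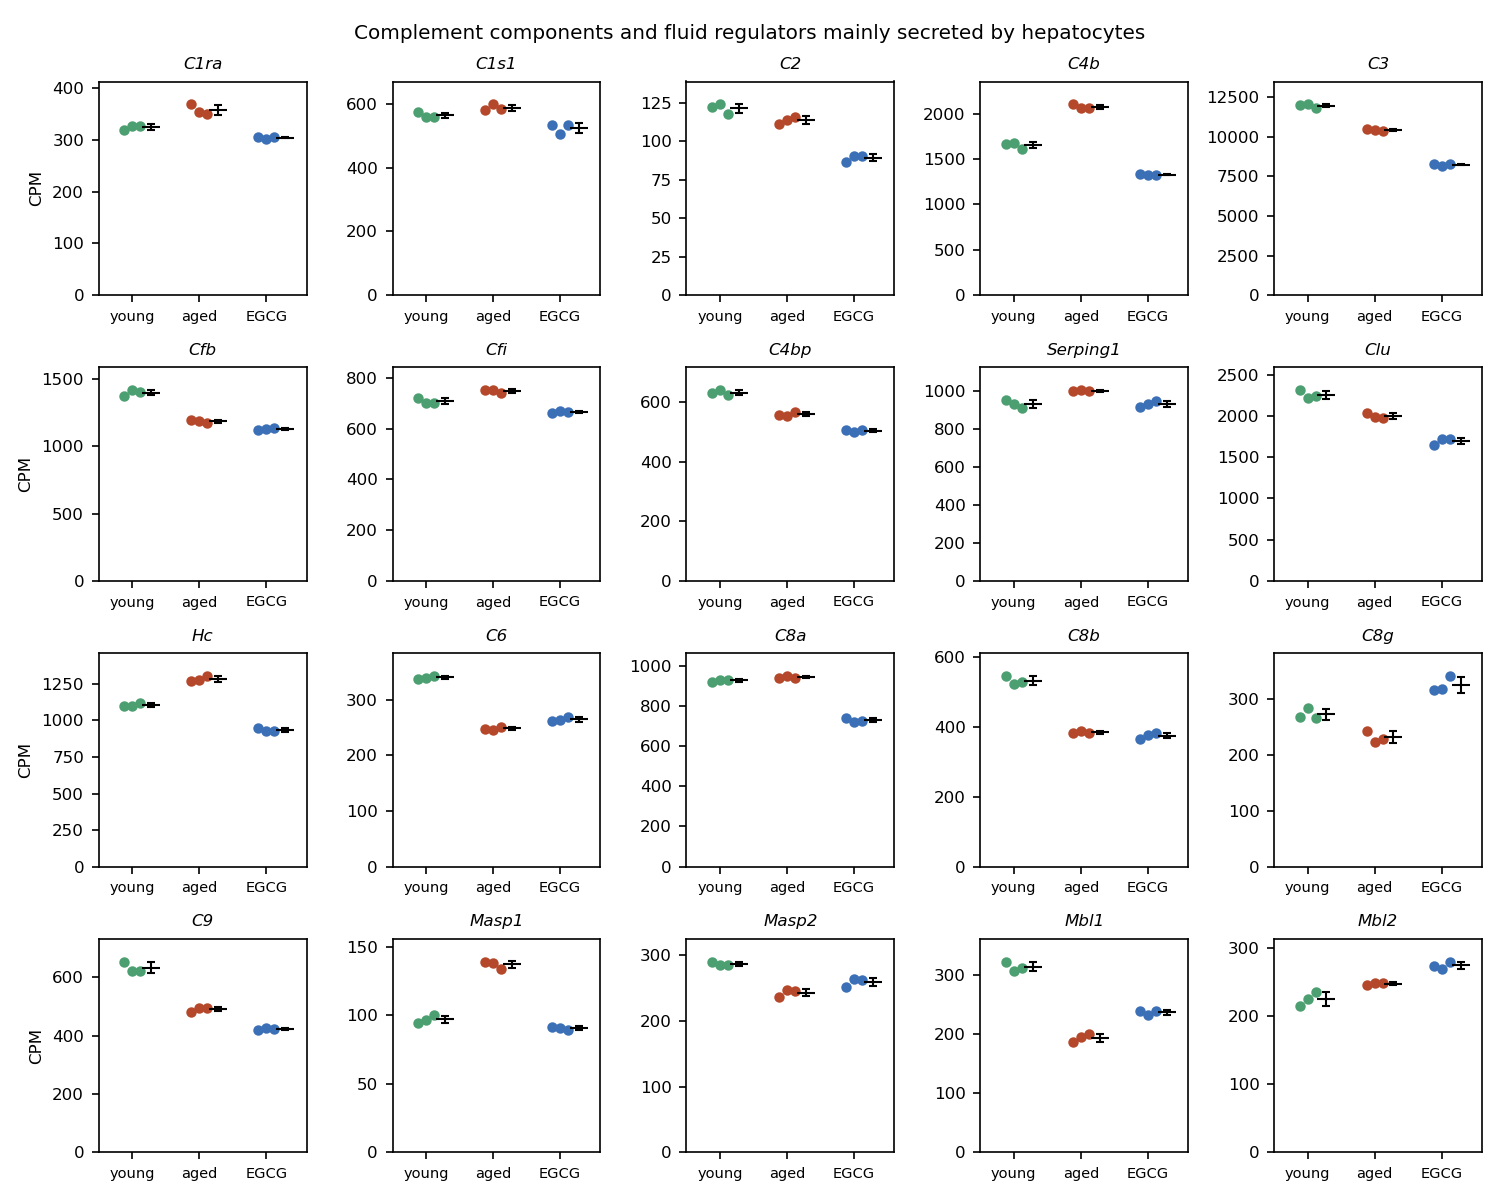
CPM (y axis, linear from 0) of the 20 hepatocyte-secreted complement genes in each library (points) with the group mean and SD (bars) for the young, aged and EGCG-treated aged groups (EGCG). C3 stands between 8188 and 12054 CPM, and the spread within groups is small beside most differences between them.

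**Figure D4:**
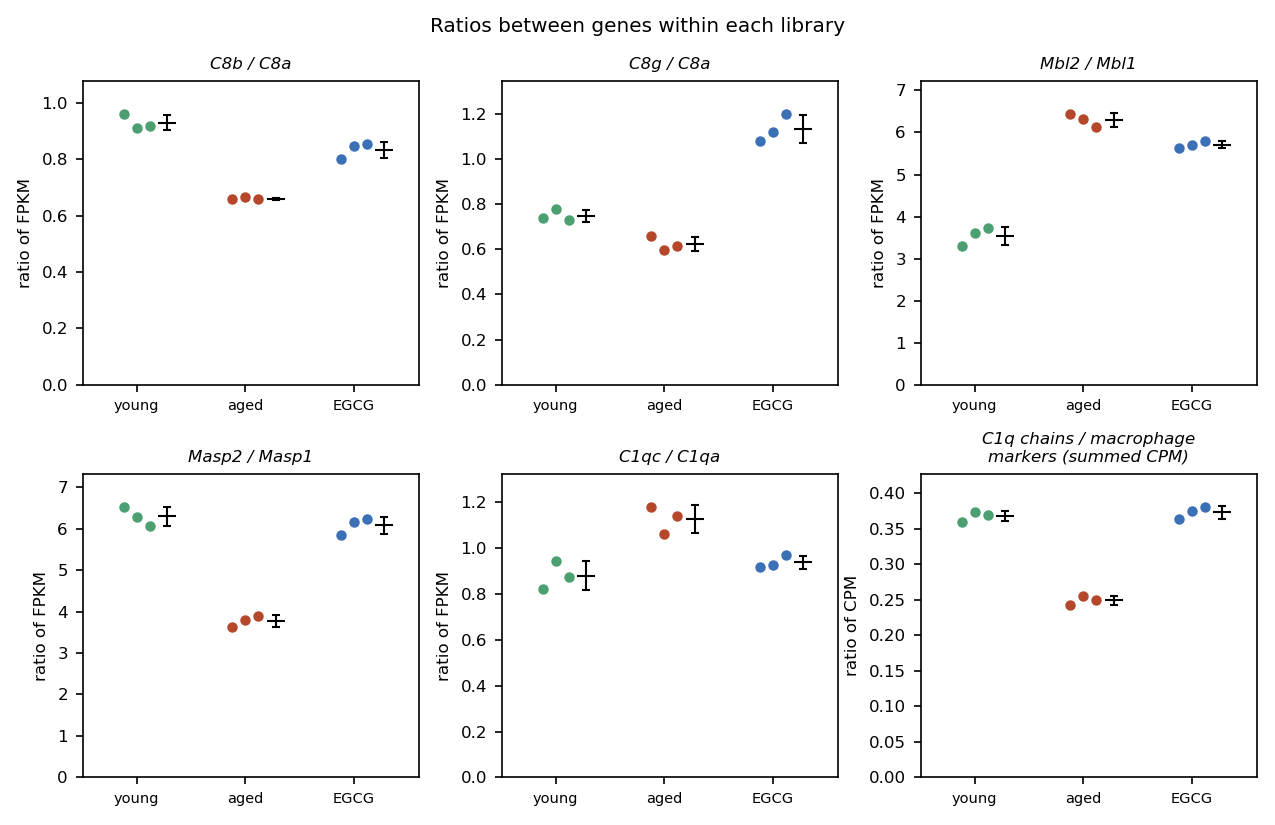
Ratios between genes within each library (points) with the group mean and SD (bars): FPKM ratios in 5 panels, and in the last the summed CPM of the C1q chains over that of 10 macrophage markers. The ratios of Masp2 to Masp1 and of C1q to macrophage markers overlap between the young and EGCG-treated groups (EGCG), and the aged libraries lie below both.

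Other complement genes, a list of 25 kept apart from the 34, gave 19 tested genes. With age 10 were higher and 6 lower (median 0.13), with EGCG against aged 8 higher and 10 lower (median -0.26), and with EGCG against young 8 higher and 5 lower (median 0.03). The shares called, 84.2%, 94.7% and 68.4%, stand beside 69.5%, 63.3% and 62.9% of all genes tested. Vsig4, a C3b receptor of tissue macrophages, stood at 7.44 ± 1.2 CPM in young, 32.6 ± 0.718 in aged and 17.2 ± 1.43 in EGCG-treated libraries (log2 2.13 with age, SE 0.0904, adjusted p = 4.62e-24). The order of its groups was that of C1q, and it also stands in the macrophage marker list. C1rb, the near-identical copy of C1ra, had the largest fitted change with age (3.41, adjusted p = 2.35e-05) and with EGCG (-3.64, adjusted p = 1.09e-05), and both rested on aged replicate 2. That library held 783 counts (19.8 CPM) and the other 8 held 12 to 33. Without it the values were -0.22 (adjusted p = 0.747) and -0.01 (adjusted p = 0.989). Cd93, an endothelial and myeloid receptor once described as a C1q receptor, fell with EGCG from 5.63 ± 0.305 to 1.55 ± 0.454 CPM (log2 -1.86, adjusted p = 2.27e-10).

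Of 20 genes of pathways known to induce complement in hepatocytes, through interleukin 6, interleukin 1, STAT3 and C/EBP factors, 19 were tested. With age 8 were higher and 11 lower (median -0.16), with EGCG against aged 17 of the 19 were lower and the other 2 were not called (median -0.80), and with EGCG against young 4 were higher and 13 lower (median -0.49). The share lower with EGCG against aged was 89.5%, beside 31.5% of all genes tested. With age 42.1% were higher and 57.9% lower, beside 33.4% and 36.1%, and against young 21.1% and 68.4%, beside 30.8% and 32.1%. Il1b, interleukin 1 beta, rose from 1.82 ± 0.235 to 18.5 ± 1.01 CPM with age and stood at 2.01 ± 0.441 with EGCG. Its receptor gene Il1r1 fell from 300.3 to 43.3 CPM with age (log2 -2.79) and lay 3.60 below young with EGCG. Spi1 (PU.1) stood at 2.23 ± 0.0428, 7.92 ± 0.918 and 4.55 ± 0.48 CPM in the young, aged and EGCG-treated libraries. Il6ra, the interleukin 6 receptor, fell by 2.18 with EGCG, from 48.3 ± 1.82 to 10.7 ± 0.479 CPM, and Cebpd, a C/EBP factor, by 1.86. Socs3, a target and inhibitor of STAT3, was 2.65 lower in treated than in young libraries, and Cebpb 1.90 lower. Cebpa, another C/EBP gene of the list, did not fall. It stood at 258 ± 6.36 CPM in young, 426 ± 8.28 in aged and 427 ± 3.42 in EGCG-treated libraries. Cebpa was not called with EGCG against aged (log2 0.0016, adjusted p = 0.963) and was 0.73 higher in treated than in young libraries. Over the same comparison the 20 hepatocyte-secreted complement genes ranged from -0.58 to 0.28.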

How the data were processed

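RNA-seq libraries of 3 groups of 3 were grouped by their labels. The authors deposited whole-number counts per gene with FPKM beside them, per the file headers. GRCm38 (mm10) is named in the submitters' processing notes. Aligner, counter, annotation and strandedness: not given in the sources used here.

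Counts were tested with edgeR 4.0.16 (R 4.3.3): filterByExpr with a minimum count of 10, TMM factors, 1 quasi-likelihood fit of the 3 groups, and Benjamini-Hochberg adjustment over the 12747 genes tested. CPM are counts divided by TMM-scaled library size, from edgeR's cpm function. The common biological coefficient of variation was 5.37%. Standard errors of edgeR changes were derived from the test, as the absolute log2 change over the square root of its F statistic. TMM factors were 0.911 to 0.92 in the young and 1.03 to 1.05 in the other libraries. Alternatives were RLE and upper-quartile factors, no filter, DESeq2 1.42.0, fits of 2 groups, a replicate block, limma 3.58.1 on log2(FPKM + 1) and log2(FPKM + 0.1), and each library left out. The steps were tested on simulated data. FPKM folds are on that log2 scale, which understates low genes.

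The 34 members and all lists (members by source, other complement genes, inducing pathway genes, cell type markers) were chosen with earlier results of these data known. Values in every library are given for members with a group mean of at least 5 CPM and for the receptors. Full statistics go to the members with the largest changes called in each comparison, and the other lists name up to 5 called genes per comparison with a group mean of at least 5 CPM, by size of change. Cebpa is named in addition, beside the other C/EBP genes. Microglial markers summed to 20.5 to 26.7, 39.7 to 42.4 and 32.6 to 37.3 CPM in the young, aged and EGCG-treated libraries, and sinusoidal endothelial markers to 94.4 to 100.4, 218 to 231 and 84.8 to 90.7 CPM. Markers of Muller glia and astrocytes summed to 17.2 to 19.8, 30.3 to 32 and 18.4 to 19.1 CPM, and those of adipocytes, Cfd included, to 4.06 to 5.99, 7.33 to 7.68 and 4.07 to 4.69 CPM. Rod markers summed to 28.9 to 33.4, 10.6 to 11.9 and 6.7 to 7.14 CPM, most of it Gnat1 (means of 29.2, 10 and 4.74 CPM), and markers of the retinal pigment epithelium to 2.6 to 4.48, 14.3 to 15.6 and 7.52 to 8 CPM.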

Additional observations from a re-analysis of the deposited data

How the results depend on the processing

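All 9 macrophage-made genes and receptors kept their direction and call with EGCG against aged under every alternative run. With age 8 to 9 of them were called when a library was left out. Counts of the 34 ranged, with a library left out, from 18 to 21 higher and 10 to 12 lower (aged against young), stayed at 5 higher and 25 lower (EGCG against aged), and ranged from 10 to 11 higher and 16 to 17 lower (EGCG against young). With age the genes called lower fell from 12 to 4 on log2(FPKM + 1) and on log2(FPKM + 0.1). Direction and call both held under all alternatives for 22, 30 and 22 of the 34 in the 3 comparisons. A turn of sign in a gene called in neither fit counts as a change here. The share of calls that were higher, over all genes with age, was 48.1% and became 57.9% with upper-quartile factors and 66.8 and 67.2% on FPKM, and for EGCG against young it was 49% and became 65.6, 66.9 and 67.2%.

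With age these values turned: C2 to 0.018 (upper-quartile), 0.108 and 0.110 (FPKM + 1 and + 0.1), C4bp to 0.026, Clu to 0.026 and Cr1l to 0.044 and 0.046. With EGCG against aged, upper-quartile factors turned C8b to 0.024 and Cd59a to 0.038, and leaving out a library moved Cd59a from -0.066 to 0.021. For EGCG against young, upper-quartile factors and the 2 FPKM fits turned C1ra to 0.072, 0.085 and 0.086, C1s1 to 0.060, 0.073 and 0.074, Cfi to 0.075, 0.089 and 0.089, Masp1 to 0.066, 0.075 and 0.080, Masp2 to 0.016, 0.030 and 0.030, Cr1l to 0.060, 0.069 and 0.072, Serping1 to 0.165, 0.178 and 0.179, and C5ar1 to 0.005 and, on FPKM + 1, 0.000. Serping1 was 0.006 with RLE factors and DESeq2, 0.004 in a fit of 2 groups and -0.02 to 0.015 with a library left out. With a library left out C5ar1 ranged from -0.487 to 0.147, Itgam from -0.898 to 0.009 and Cfd from -0.297 to 0.57. The cause of these turns was not tested beyond the shift of all genes given with the first comparison.

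Same-numbered libraries did not deviate together (correlations of -0.0609 to 0.0201, 1 of 9 libraries best with its own number), so the numbers were not taken to pair them. With the replicate block the counts were 20 higher and 12 lower, 5 and 25, and 10 and 17, and no call among the 34 changed. Depth limits Cfd, C5ar1, Itgam and C3ar1, with 6 to 156 counts per library.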

Other observations

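The 20 hepatocyte-secreted complement genes fell into 5 orders of the 3 group means. In 8 (40%) the order was EGCG-treated, young, aged from low to high, an order shown by 12.8% of all genes tested, and in 7 (35%) it was EGCG-treated, aged, young, shown by 16.6%. The EGCG-treated mean was thus lowest in 15 of 20. These orders were not tested, and those between young and treated means move with the scaling.

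Divided by the summed level of the 10 macrophage markers in the same library, Itgb2 stood at 0.0224 to 0.0314 in the young, 0.0226 to 0.025 in the aged and 0.0234 to 0.0311 in the EGCG-treated libraries, so the 3 groups overlapped. The same quotient of Cd55 was 0.0556 to 0.0691, 0.0208 to 0.024 and 0.0324 to 0.0339, with no overlap. Like that of C1q, these quotients depend on the markers summed.

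C1rb took 5.57% of the C1ra count in aged replicate 2 and 0.107 to 0.301% in the other 8 libraries, while C1ra itself held 14065 counts there and 14290 and 14800 in the other aged libraries.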
